A study of Mus musculus with 24 samples.

Results

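The 7 genes described here, which are highly transcribed in most mouse cells, are Actb, Actg1, Tubb5, Gapdh, Eef1a1, Eef2 and Npm1. They are 7 of the 21887 protein-coding genes annotated by RefSeq. The members were the peaks that overlapped a fixed window of the mm10 genome around each gene, with no expression value used in the choice. In all, 109 of the 1811308 peaks in the 6 lists overlapped a window. The NELFB:HA libraries contributed 18 and 21 of them, the NELFE libraries 20 and 26, and each SPT5 library 12.

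The cells were E14 mouse embryonic stem cells kept in serum with LIF, a cytokine that maintains self-renewal. All groups, the controls included, had the genotype that the labels call Nelfb deg, a degron allele of Nelfb that also carries the HA tag recognised by the antibody in the NELFB:HA libraries. The peak lists came from the samples with the treatment label Control: 2 NELFB:HA, 2 NELFE and 2 SPT5 libraries. The labels do not state whether the 2 libraries of an antibody came from separate cultures, so every spread below is that between 2 libraries and may be technical. The other 18 of the 24 samples, which include those given 500 nM dTAG-13 for 30 min and those labelled naïve or EpiLC, are not analysed here.

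NELF and DSIF bind RNA polymerase II shortly after initiation and hold it in a paused state downstream of the start site. NELFB and NELFE are subunits of NELF. SPT5 is the large subunit of DSIF, which stays with the polymerase after pause release, when NELF leaves, and travels with it through the gene. Housekeeping genes such as these are short, are transcribed at high rates and are often used as references in expression assays. Actb, Actg1, Gapdh, Eef1a1 and Npm1 are also known for processed pseudogene copies elsewhere in the genome, with which short reads can be shared. The effect of those copies on the peaks was not tested.

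Depth after filtering ran from 27324697 to 62312558 tags per library, both extremes being SPT5 libraries. Tags were 50 bp long in the 4 NELF libraries, each of which had an input of its own, and 100 and 101 bp long in the SPT5 pair, which shared 1 input. For each difference between SPT5 and a NELF subunit, the antibody cannot be told apart from the tag length and the input. The lists also differ in length, from 137102 peaks in SPT5 2 to 462153 in SPT5 1. Of the embryonic stem cell markers, Pou5f1 and Sox2 had a peak of q-value 0.01 or less within 4 kb in all 6 libraries and Nanog in 5. Of the 21887 protein-coding genes, 7187 had one in all 6.

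For 5 of the genes the RefSeq promoter table of build GRCm38.p6, which is mm10, gave the strand and the start site, and Actb and Npm1 are described by their lower- and higher-coordinate ends. The 150 bases before the start site of those 5 genes lay wholly inside the strongest peak over the gene in all 6 libraries. Of these, 4 are printed because that is the DNA shared by the NELF and the SPT5 peaks. The stretch of Gapdh lies within the annotated gene and is not printed. Each is given 5′ to 3′ on the strand of the gene, with motif matches in capitals.
Actg1, chr11:120348496-120348645, minus strand: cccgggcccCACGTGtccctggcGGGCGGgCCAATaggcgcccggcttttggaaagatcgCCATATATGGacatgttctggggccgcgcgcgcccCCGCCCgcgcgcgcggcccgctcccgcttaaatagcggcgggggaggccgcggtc
Eef1a1, chr9:78481725-78481874, minus strand: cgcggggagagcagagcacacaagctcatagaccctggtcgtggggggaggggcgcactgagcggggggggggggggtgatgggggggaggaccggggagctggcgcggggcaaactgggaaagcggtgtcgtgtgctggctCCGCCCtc
Eef2, chr10:81176481-81176630, plus strand: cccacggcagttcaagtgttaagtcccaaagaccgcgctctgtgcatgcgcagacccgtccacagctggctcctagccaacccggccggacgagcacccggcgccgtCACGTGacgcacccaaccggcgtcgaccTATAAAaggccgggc
Tubb5, chr17:35838302-35838451, minus strand: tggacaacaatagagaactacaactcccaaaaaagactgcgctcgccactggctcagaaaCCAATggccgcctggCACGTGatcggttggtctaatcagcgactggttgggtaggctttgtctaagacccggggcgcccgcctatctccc

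A short set of promoter motifs was searched on both strands, and the matches printed above do not overlap one another. The E-box with the letters CACGTG matched in 3 of the 5 stretches, at position -141 from the start site in Actg1, -43 in Eef2 and -75 in Tubb5. The same letters occurred in 4.3% of the 32851 promoters of the table over the same length. The letters TATAAA of a TATA box matched in Eef2 alone, at -15, and in 7.57% of all promoters. The CCAAT box, searched by those letters, matched in Actg1 at -120 and Tubb5 at -90, against 24.5% of all promoters. The GC box, searched as GGGCGG, matched in Actg1 at -127 and, on the other strand, at -55 and in Eef1a1 at -8, against 28.6%. A CArG box, which is well known from actin promoters, began at -90 in Actg1 and occurred in 0.916% of all promoters. The cyclic AMP response element, searched as TGACGTCA, matched in none of the 5, against 1.36% of all promoters. GC content was 74.0% in Actg1, 72.7% in Eef1a1, 66.0% in Eef2, 58.0% in Gapdh and 56.0% in Tubb5, beside a median of 54.0% over all promoters.

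Each gene is described next by its leading peak, the peak of highest pileup that overlaps the annotated gene. Pileup is the authors' read coverage, and the fold is their enrichment over the local input. Both values, and the ranks made from them, belong to a single list and are not compared by test between lists. Each is a single value for the whole of a broad peak. How far pileup, fold and rank depend on peak length was not tested. Values are given in the order of library 1 and library 2 of an antibody, as the sample titles number them. For the 4 NELF libraries the file headers carry other numbers than the titles, so a number shared between antibodies is uncertain. Over the 7 genes, NELFE and NELFB:HA peaks sat at one end of the gene in most libraries, and SPT5 peaks ran through the gene and past it, as the map of peaks shows.

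**Figure D1:**
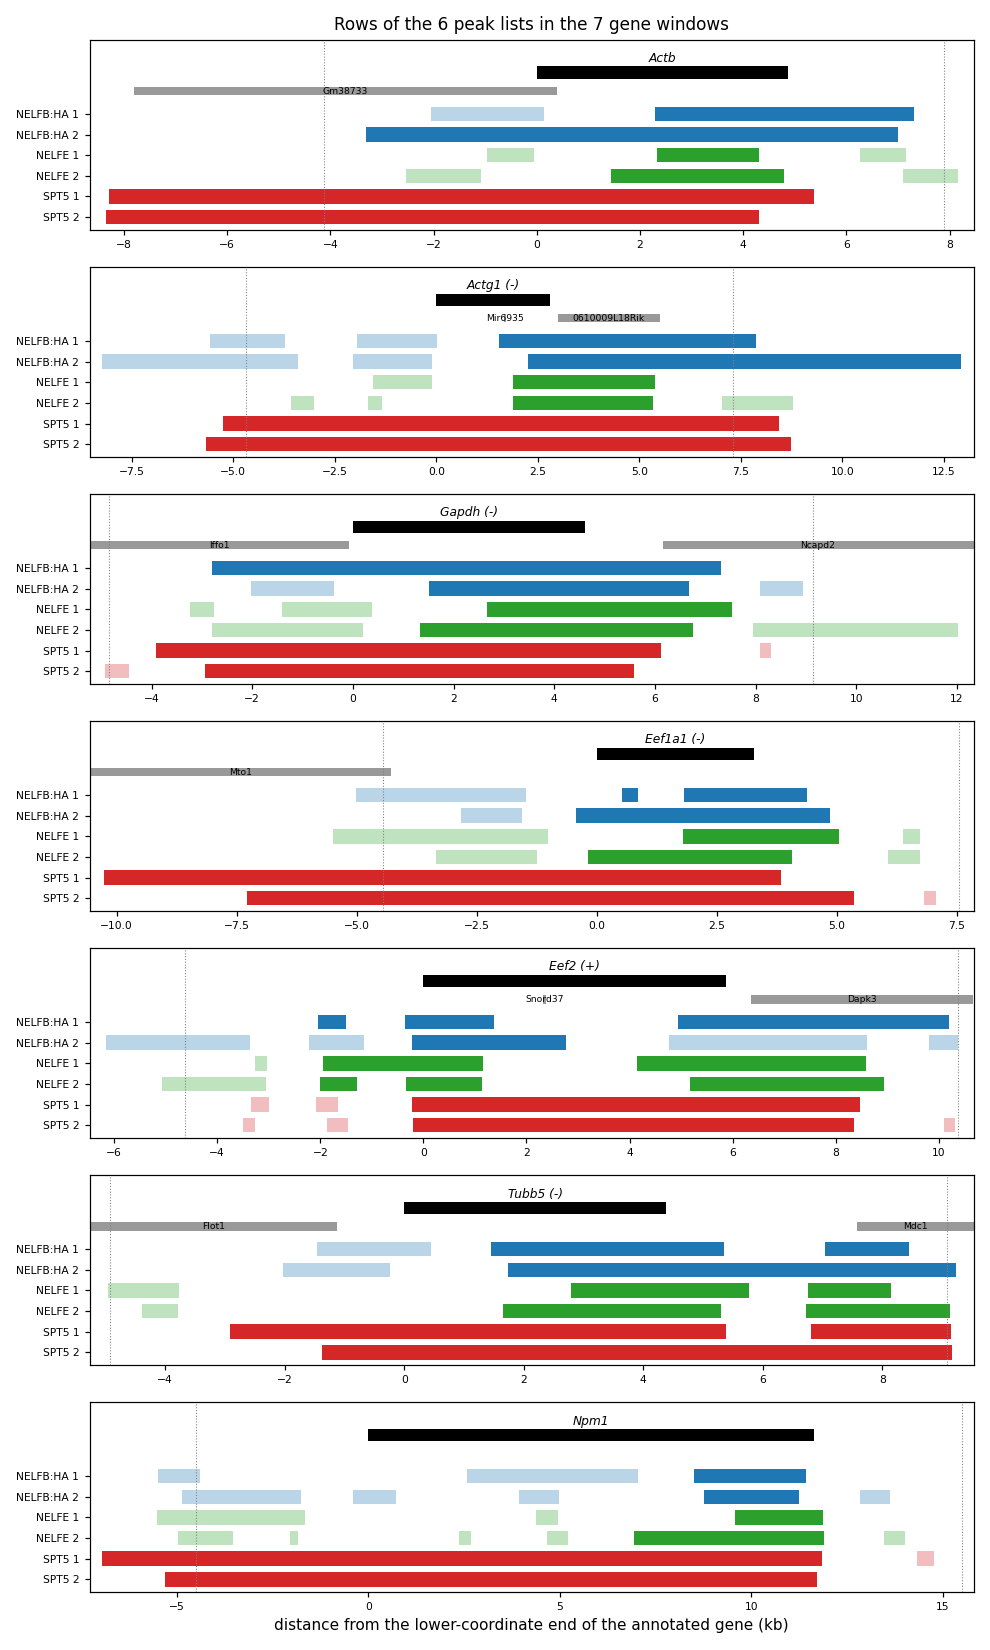
Peaks of the 6 lists in the 7 gene windows, with distance in kb from the lower-coordinate end of the gene on the x axis and 1 line per library. Black bars are the genes, grey bars neighbouring genes, dotted lines the window edges; solid coloured bars are peaks of q-value 0.01 or less and pale bars weaker peaks. The SPT5 bars cross the whole gene except in Actb, where SPT5 2 covered 88.5%.

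Actb encodes the cytoplasmic beta actin of the cytoskeleton and lies at chr5:142903115-142907976, where the lncRNA Gm38733 overlaps its lower-coordinate end. The leading NELFE peaks were chr5:142905444-142907424 and chr5:142904556-142907901, with lengths of 1981 and 3346 bp. Those of NELFB:HA were chr5:142905396-142910431 and chr5:142899808-142910123, with lengths of 5036 and 10316 bp. The second NELFB:HA library thus held 1 peak across the whole gene where the first held a shorter one over the higher-coordinate side. SPT5 peaks spanned chr5:142894831-142908481 and chr5:142894757-142907418, 13651 and 12662 bp, and went 8284 and 8358 bp past the lower-coordinate end of the gene. Their lower edges were 74 bp apart. All of Gm38733 lay under both SPT5 peaks. The fold was 9.37 and 5.02 in NELFB:HA, 10.6 and 7.52 in NELFE, and 5.29 and 5.12 in SPT5. By pileup the peak ranked 721 and 1984 in the NELFB:HA lists, 185 and 659 in the NELFE lists, and 332 and 240 in the SPT5 lists, so Actb stood ahead of Eef1a1 in NELFE 1 and behind it in the other 5 lists.

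Actg1, the gene of the other cytoplasmic actin, lies on the minus strand at chr11:120345687-120348495. The microRNA gene Mir6935 is inside it and the lncRNA 0610009L18Rik starts 182 bp from it, on the promoter side. NELFE peaks at Actg1 were the most alike between libraries of any in the set, at chr11:120347582-120351071 and chr11:120347580-120351016, with edges 2 and 55 bp apart. Their lengths were 3490 and 3437 bp, and they reached 913 and 915 bp into the gene from the start site. NELFB:HA peaks, chr11:120347242-120353554 and chr11:120347950-120358617, measured 6313 and 10668 bp and reached 1253 and 545 bp into the gene. Most of each NELF peak at Actg1 therefore lay upstream of the start site, on the side of 0610009L18Rik. SPT5 peaks, chr11:120340440-120354119 and chr11:120340027-120354435, measured 13680 and 14409 bp and ended 5247 and 5660 bp past the 3′ end. They also began 5624 and 5940 bp upstream, so the SPT5 signal extended on both sides of the gene. Fold values at Actg1 were 6.25 and 5.64 in NELFB:HA, 8.80 and 9.53 in NELFE, and 6.51 and 6.19 in SPT5. The pileup ranks were 1406 and 652, 858 and 557, and 225 and 172 in the same order, which placed Actg1 just behind Eef1a1 in both SPT5 lists.

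Tubb5 encodes a beta tubulin of the microtubules and lies on the minus strand at chr17:35833920-35838301, with Flot1 1130 bp past its 3′ end and Mdc1 3193 bp from its promoter side. Its leading peak had the lowest fold of the 7 genes in each list. The fold was 4.03 and 2.97 in NELFB:HA, 4.69 and 4.35 in NELFE, and 3.16 and 2.89 in SPT5. Its pileup ranks were 4731 and 5808 in NELFB:HA, 4324 and 4798 in NELFE, and 3502 and 3903 in SPT5. NELFE peaks, chr17:35836708-35839685 and chr17:35835568-35839226, measured 2978 and 3659 bp. In NELFB:HA the peaks were chr17:35835365-35839277 and chr17:35835651-35843147, of 3913 and 7497 bp. The longer of these ran on to Mdc1, a gene of the DNA damage response. SPT5 peaks, chr17:35831002-35839305 and chr17:35832550-35843093, measured 8304 and 10544 bp and ended 2918 and 1370 bp past the 3′ end, the second also reaching Mdc1. In the other 4 libraries a separate peak at Mdc1 had a higher pileup than the one over Tubb5, with ranks of 3935 in NELFB:HA 1, 3675 in NELFE 1, 3318 in NELFE 2 and 2186 in SPT5 1.

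Gapdh, which encodes a glycolytic dehydrogenase, lies on the minus strand at chr6:125161852-125166467, with the start site of the promoter table at 125165773 and Iffo1 68 bp past the 3′ end. NELFE peaks were chr6:125164511-125169375 and chr6:125163191-125168610, of 4865 and 5420 bp. NELFB:HA peaks were chr6:125159050-125169158 and chr6:125163367-125168534, of 10109 and 5168 bp. The first NELFB:HA library was the only NELF library whose Gapdh peak crossed the whole gene, ending 2802 bp past its 3′ end. SPT5 peaks, chr6:125157933-125167980 and chr6:125158911-125167437, measured 10048 and 8527 bp and ended 3919 and 2941 bp past it, inside Iffo1. NELFB:HA and SPT5 lengths overlapped at Gapdh, alone among the 7 genes. The fold was 5.27 and 4.23 in NELFB:HA, 7.16 and 7.12 in NELFE, and 3.71 and 3.62 in SPT5. Ranks by pileup were 5029 and 2250, 2363 and 2285, and 1649 and 1514, so Gapdh ranked below the actin genes in every library.

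Eef1a1 encodes the elongation factor that brings aminoacyl-tRNA to the ribosome and lies on the minus strand at chr9:78478453-78481724. NELFE peaks were chr9:78480242-78483492 and chr9:78478270-78482516, of 3251 and 4247 bp. NELFB:HA peaks were chr9:78480265-78482840 and chr9:78478030-78483305, of 2576 and 5276 bp. In each antibody 1 library covered the promoter side and the other the whole gene, with ends 423 bp (NELFB:HA 2) and 183 bp (NELFE 2) past it. SPT5 peaks, chr9:78468199-78482288 and chr9:78471163-78483803, measured 14090 and 12641 bp and ended 10254 and 7290 bp past the 3′ end, the farthest of the 5 genes with a known strand. Both ran through the space between Eef1a1 and Mto1, which is 4287 bp away, into Mto1. The SPT5 peaks of Eef1a1 ranked 148 and 65 by pileup, the best of the 7 genes in each SPT5 list. In NELFB:HA the ranks were 344 and 493, and in NELFE 414 and 336. Fold values at Eef1a1 were 9.72 and 8.05 in NELFB:HA, 10.3 and 12.3 in NELFE, and 6.86 and 6.89 in SPT5.

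Eef2 encodes the elongation factor that drives ribosomal translocation and lies on the plus strand at chr10:81176631-81182509, with Snord37 in it and Dapk3 477 bp past its 3′ end. The NELF peaks were short and had a high pileup. In NELFE they were chr10:81174691-81177791 and chr10:81176295-81177775, of 3101 and 1481 bp, and in NELFB:HA chr10:81176277-81178001 and chr10:81176402-81179401, of 1725 and 3000 bp. Their pileup ranked 70 and 465 in the NELFB:HA lists and 391 and 25 in the NELFE lists, and it was the best-ranked of the 7 genes in NELFB:HA 1 and in NELFE 2. In SPT5 the ranks were 908 and 1516. The fold was 12.4 and 5.75 in NELFB:HA, 8.12 and 10.7 in NELFE, and 3.86 and 3.35 in SPT5. SPT5 peaks, chr10:81176417-81185097 and chr10:81176429-81184983, measured 8681 and 8555 bp. They began 214 and 202 bp upstream of the start site and ended 2588 and 2474 bp past the 3′ end, with edges 12 and 114 bp apart between libraries. At Eef2 the SPT5 signal thus extended almost entirely downstream. A separate NELF peak of q-value 0.01 or less lay across the end of Eef2 and the start of the Dapk3 interval in 3 of the 4 NELF libraries. It spanned chr10:81181563-81186825 in NELFB:HA 1, chr10:81180767-81185222 in NELFE 1 and chr10:81181799-81185563 in NELFE 2, and the matching NELFB:HA 2 peak had a −log10 q-value of 1.46.

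Npm1 encodes nucleophosmin, a chaperone of the nucleolus that takes part in ribosome assembly, and lies at chr11:33152498-33164142, the longest gene of the set. NELFE peaks were chr11:33162068-33164367 and chr11:33159435-33164405, of 2300 and 4971 bp. NELFB:HA peaks were chr11:33161009-33163919 and chr11:33161262-33163742, of 2911 and 2481 bp. All 4 lay at the higher-coordinate end. SPT5 peaks, chr11:33145535-33164353 and chr11:33147193-33164218, measured 18819 and 17026 bp, crossed the whole gene and went 6963 and 5305 bp past its lower-coordinate end. They stopped 211 and 76 bp beyond the end where the NELF peaks lay. The SPT5 peaks of Npm1 were the longest of the 7 genes and had pileup ranks of 2486 and 2056. In NELFB:HA the ranks were 304 and 146, and in NELFE 216 and 664. The fold was 9.33 and 6.77 in NELFB:HA, 15.3 and 10.1 in NELFE, and 3.77 and 3.99 in SPT5.

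**Figure D2:**
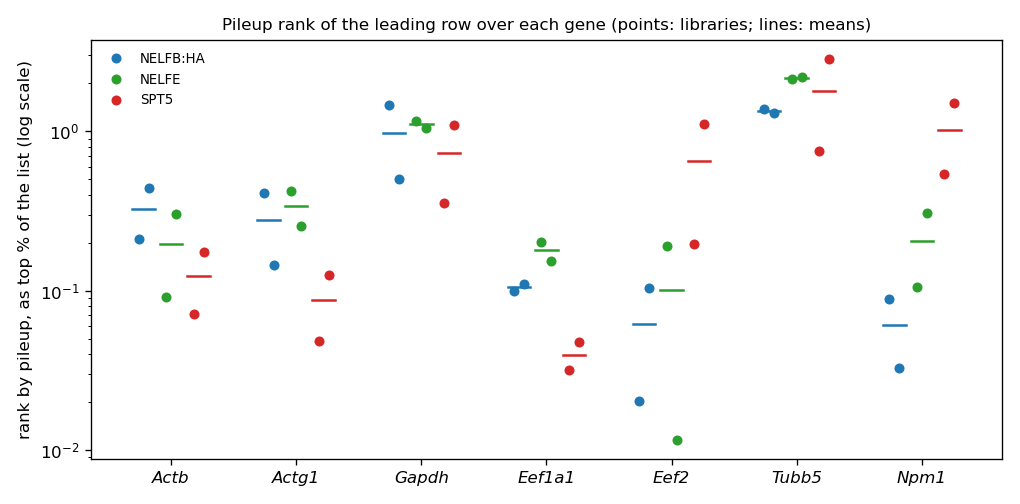
Rank by pileup of the leading peak over each gene, as a percent of the peaks in its list on a log scale, lower being stronger; points are libraries and lines the means of 2 libraries. Eef1a1 lies lowest in SPT5 (ranks 148 and 65), Eef2 lies lowest in NELFE 2 (rank 25) and Tubb5 lies highest in SPT5 2 (rank 3903).

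Since the lists differ in length, a rank was also read as a share of its list. The median over the 7 genes was the top 0.210% and 0.146% of the NELFB:HA lists, 0.203% and 0.304% of the NELFE lists, and 0.196% and 1.10% of the SPT5 lists. SPT5 2, with the highest of these shares, has the shortest list. All 42 leading peaks had a −log10 q-value above 2, the lowest being 5.45 at Tubb5 in SPT5 1.

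SPT5 peaks were longer than NELFE peaks in both libraries at 7 of 7 genes. The same absence of overlap held for 46.2% of 2018 genes no longer than Npm1. These had a peak of q-value 0.01 or less within 4 kb, and a peak of any strength over the gene, in all 6 libraries. Npm1 had the widest gap, with 17922.5 ± 1267.8 bp (SD, n = 2) in SPT5 and 3635.5 ± 1888.7 bp in NELFE, a difference of 14287 bp against a pooled SD of 1608.5 bp. Actg1 followed, with a mean difference of 10581 bp against 365 bp, and then Actb with 10493 bp against 843 bp and Eef1a1 with 9616.5 bp against 879 bp. The difference was 6327 bp against 812 bp at Eef2, 6105.5 bp against 1171 bp at Tubb5 and 4145 bp against 810 bp at Gapdh. Each difference exceeded its pooled SD, but with 2 libraries against 2 the exact two-sided permutation test cannot give a p below 0.333.

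Against NELFB:HA, SPT5 peaks were longer without overlap at 6 of 7 genes, Gapdh being the exception, beside 40.9% of the 2018 genes. Npm1 again had the widest gap, 15226.5 bp against a pooled SD of 922 bp. The Actb difference of 5480.5 bp and the Actg1 difference of 5554 bp stood beside pooled SDs of 2686 and 2208 bp, since the NELFB:HA libraries disagreed on the length of both peaks. NELFB:HA peaks were longer than NELFE peaks without overlap at 3 of 7 genes, the cytoskeletal Actb, Actg1 and Tubb5, beside 24.1% of the 2018 genes. At Eef1a1 and Eef2 the means of both NELF subunits differed by 177 and 71.5 bp, less than the pooled SDs of 1439 and 1031 bp.

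**Figure D3:**
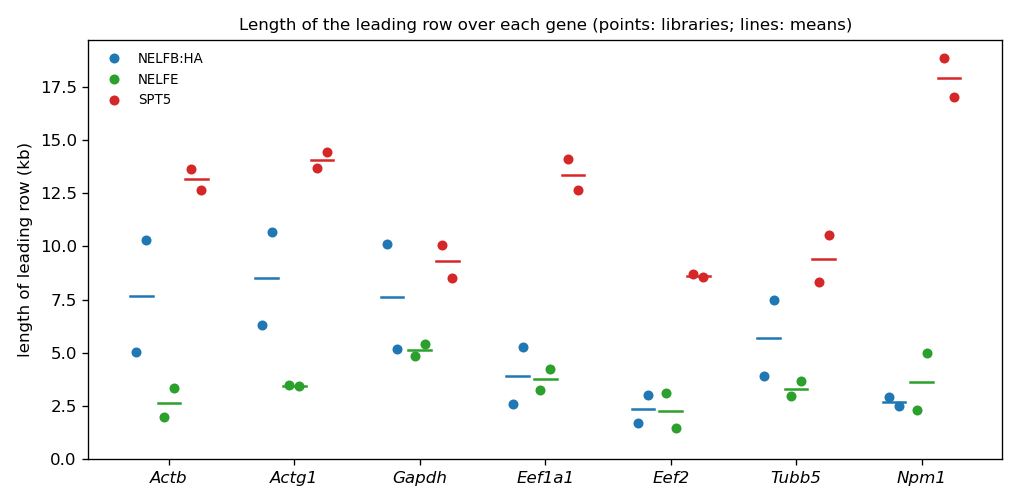
Length in kb of the leading peak over each gene in each library (points) with the mean of 2 libraries (lines). SPT5 points lie above both NELFE points for all 7 genes; at Gapdh the NELFB:HA 1 point (10109 bp) lies above both SPT5 points.

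SPT5 peaks of this length were found at other genes too. The mean SPT5 length of the 7 genes lay between percentile 88.4 (Eef2) and percentile 97.7 (Npm1) of 7067 genes. These genes, of any length, met the same peak criteria as the shorter set above. In NELFE the genes ranged from percentile 58.2 (Eef2) to 97.6 (Gapdh), and in NELFB:HA from 44.5 (Eef2) to 99.7 (Actg1). Eef2 thus had the lowest percentile for each antibody, and its NELF peaks were of ordinary length. The medians over the 7067 genes were 2250 and 2538 bp in NELFB:HA, 1894 and 2114 bp in NELFE, and 3159 and 2495 bp in SPT5.

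The peak over the start site ended past the annotated 3′ end in both SPT5 libraries for 5 of the 5 genes with a known strand. This held for 24.8% of 1332 genes no longer than Npm1. These had a peak of q-value 0.01 or less within 4 kb, and the start site covered, in all 6 libraries. No gene of the 5 met this in both NELFB:HA or both NELFE libraries, beside 6.68% and 5.93% of the 1332 genes. The single NELF libraries that did were NELFB:HA 1 at Gapdh, NELFB:HA 2 at Eef1a1 and NELFE 2 at Eef1a1. All 7 genes are short, and the background was limited to genes no longer than Npm1 and not matched further on length. Both SPT5 peaks ended inside a neighbouring gene at Gapdh (Iffo1), Eef1a1 (Mto1), Eef2 (Dapk3) and Tubb5 (Flot1). Whether signal of the neighbour lengthened these peaks was not tested.

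Counting peaks of any strength, both SPT5 libraries covered the whole annotated gene for 6 of 7 genes, beside 20.2% of 2124 genes no longer than Npm1. These 2124 had a peak of q-value 0.01 or less within 4 kb in all 6 libraries. Neither NELF subunit covered a whole gene in both libraries for any of the 7, beside 4.85% for NELFB:HA and 4.19% for NELFE. At Actg1 the covered share was 45.2% and 19.4% in NELFB:HA, 32.5% and 32.6% in NELFE and 100% in both SPT5 libraries. At Npm1 it was 63.3% and 36.6%, 22.7% and 47.7%, and 100% in both. Eef2 had 39.4% and 66.2% in NELFB:HA and 49.4% and 31.6% in NELFE. SPT5 coverage exceeded NELFE without overlap at 6 of 7 genes (50.9% of the 2124), the exception being Eef1a1, which NELFE 2 covered in full. It exceeded NELFB:HA at 4 of 7 (38.1%), namely Actg1, Eef2, Tubb5 and Npm1. NELFB:HA exceeded NELFE at 0 of 7 genes, beside 29.0% of the 2124.

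The windows include neighbouring DNA. The median covered share over the 7 windows was 51.6% and 65.0% in NELFB:HA, 41.2% and 47.3% in NELFE, and 75.6% and 74.6% in SPT5. The order did not hold at each gene: NELFB:HA 2 covered 86.0% of the Actb window, above the 79.0% and 70.2% of SPT5, and 65.0% of the Eef2 window, above 63.0% and 62.7%. NELFB:HA 1 covered 72.2% of the Gapdh window and NELFE 2 68.6%, both between the 73.2% and 63.9% of SPT5. At Eef1a1 the NELFE libraries covered 58.8% and 58.4% of the window, above the 49.1% and 54.4% of NELFB:HA. SPT5 reached its median with fewer peaks: 8 of 12 and 7 of 12 had a q-value of 0.01 or less, against 11 of 18 and 7 of 21 in NELFB:HA and 9 of 20 and 10 of 26 in NELFE. The remaining peaks were weaker, and some of them lay inside the genes, as at Npm1.

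Covered length was also tested over the genome with limma, with peaks of q-value 0.01 or less from any list merged into regions and 11853 regions covered in all 6 libraries. Benjamini-Hochberg adjustment ran over all of them at a threshold of 0.05. The merged region of a gene takes in weak peaks and neighbours, so differences are smaller than those of the leading peaks. A covered length also cannot exceed its region, whose bounds come from the same peaks, so each difference has a ceiling. The Gapdh region, for example, measured 11443 bp, of which the NELFE libraries covered 7129 and 8411 bp. A long SPT5 peak can also set the bounds of the region on which it is then scored. The Npm1 region starts at chr11:33145535, where the SPT5 1 peak starts, and SPT5 1 covered 18819 of its 18871 bp. Part of a difference in favour of SPT5 can thus be built in, and how large a part was not tested. SPT5 covered more than NELFE in 153 regions (1.29%) and less in 2, a split that was 257 and 120 with no filter on coverage and 182 and 22 with lengths centred on the library medians. Of the 7 genes only Npm1 was called, with 18819 and 17026 bp in SPT5 beside 6726 and 7476 bp in NELFE and 8470 and 7993 bp in NELFB:HA. Its log2 difference from NELFE was 1.34 (SE 0.19, limma adjusted p = 0.0415), with no overlap between the libraries.

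That call was lost with the stricter merging threshold (adjusted p = 0.0573), with lengths centred on the library medians (0.0576), without a variance trend (0.168) and without any 1 of the 6 libraries. Those last 6 limma adjusted p-values ran from 0.0689 without NELFB:HA 2 to 0.351 without SPT5 2. The log2 difference stayed between 1.19 and 1.41 under these settings. The Actg1 region, with 15126 and 15176 bp in SPT5 beside 4947 and 6669 bp in NELFE, had a log2 difference of 1.40 (SE 0.25) and missed the threshold (limma adjusted p = 0.0625). Actb had 1.08 (SE 0.30, adjusted p = 0.146), Tubb5 1.04 (SE 0.27, 0.131) and Eef1a1 0.81 (SE 0.20, 0.110). For Eef2 the log2 difference was 0.43 (SE 0.23, limma adjusted p = 0.449) and for Gapdh 0.26 (SE 0.28, 0.739). The median over the 7 genes was 1.04, beside 0.15 over all 11853 regions, and the genes stood between percentile 55.5 (Gapdh) and 93.2 (Actg1) of them.

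SPT5 covered more than NELFB:HA in 2 regions (0.0169%), neither of them at the 7 genes, with 1598 regions at an unadjusted p under 0.05. The median log2 difference of the 7 was 0.25, beside 0.04 over all regions, and Npm1 had the lowest limma adjusted p, 0.115, at 1.12 (SE 0.19). NELFB:HA and NELFE differed in 0 regions (0%), with 884 at an unadjusted limma p under 0.05. The median of the 7 was 0.22, beside 0.12 over all regions. In simulated data of the SPT5 and NELFE comparison, 38% of 100 regions with a log2 change of 2 and 99% of 100 with a change of 4 were recovered among the 11853 regions. All 7 gene regions are too short, beside their NELFE covered lengths, for a log2 difference of either size. The Actg1 region, for example, measured 18591 bp, of which the NELFE libraries covered 4947 and 6669 bp. Recovery of differences as small as those at the 7 genes was not tested.

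**Figure D4:**
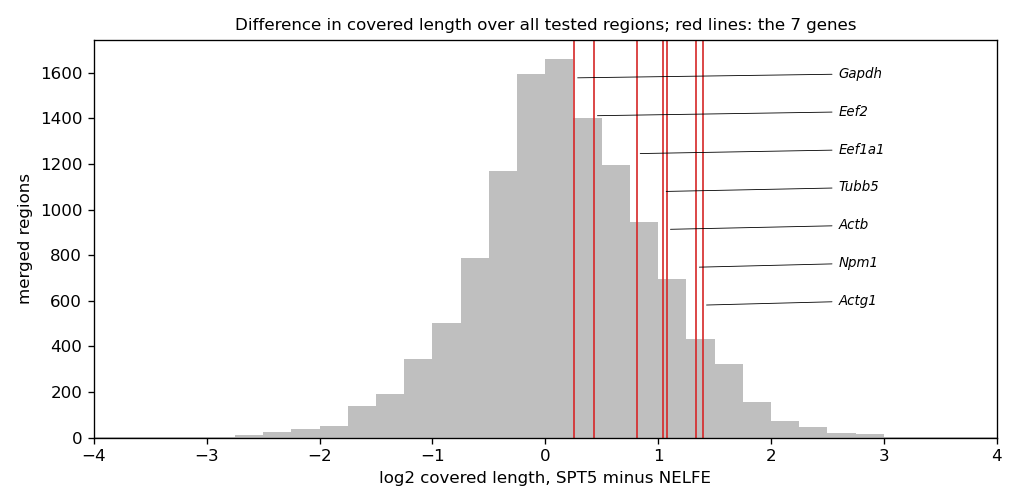
Number of merged regions (y axis) by log2 difference in covered length, SPT5 minus NELFE (x axis), over the 11853 tested regions, with a red line for each of the 7 genes. All 7 lines lie to the right of 0, from 0.26 for Gapdh to 1.40 for Actg1, inside the body of the distribution.

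Related genes were taken from fixed lists, which were chosen with earlier results of these data known, so their counts are descriptive. Of 14 translation and glycolysis genes, 13 had a peak of q-value 0.01 or less within 4 kb in all 6 libraries, Pgk1 having one in 2. Over the genome, 7187 of the 21887 protein-coding genes had such a peak in all 6. Both SPT5 libraries covered the whole gene in 7 of these 14, beside 6.41% of 7187 genes of any length with such a peak in all 6 libraries and 20.2% of those no longer than Npm1. Those 7 were the translation genes Eef1b2, Eef1g, Eif4a1, Eif5a, Rplp0, Rps2 and Rpl3. Eef1d and the glycolysis genes Pkm, Eno1, Aldoa, Ldha, Tpi1 and Pgk1 were not covered in full. SPT5 exceeded NELFE in covered share without overlap in 10 of the 14, beside 50.9% of the 7187 genes. Eef1g, which encodes another subunit of elongation factor 1, was covered to 13.1% and 34.7% in NELFE and 100% in both SPT5 libraries. It was the only gene of the list called for covered length, at a log2 difference of 1.62 (SE 0.22, limma adjusted p = 0.0358), and the list had a median of 0.62. The log2 differences ran from 0.37 (Eef1d) to 1.62 (Eef1g) for the translation genes and from -0.82 (Pgk1) to 0.76 (Tpi1) for the glycolysis genes. Rplp0, a ribosomal stalk protein, was covered to 13.5% and 33.7% in NELFE and in full by SPT5, whereas SPT5 covered 23.0% and 31.6% of Ldha, the gene of lactate dehydrogenase, within the range of NELFE (10.1% and 39.4%).

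All 7 cytoskeleton genes had such a peak in all 6 libraries, beside 7187 of the 21887 protein-coding genes. SPT5 covered 3 of the 7 in full, beside 6.41% of the 7187 genes of any length and 20.2% of those no longer than Npm1. None was called (median log2 difference 0.37), beside 1.29% of all tested regions called longer in SPT5. SPT5 exceeded NELFE without overlap in 4 of these 7, close to the 50.9% of the 7187 genes. Cfl1 and Pfn1, regulators of actin filaments, and Tubb4b were the 3 covered in full. All 4 nucleolar genes, Ncl, Fbl, Nop56 and Npm3, had a peak in all 6 libraries, and in all 4 SPT5 exceeded NELFE in covered share without overlap, beside the same 50.9%. SPT5 covered Ncl, Nop56 and Npm3 in full, beside the same 6.41% and 20.2%. The list median was 1.25 and none was called. Medians of these lists stand beside 0.15 over all tested regions.

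Relatives of the 7 genes with tissue-restricted expression mostly lacked a strong peak. Of 11 such genes, 7 had no peak of q-value 0.01 or less within 4 kb in any library: the muscle actins Acta1, Acta2, Actc1 and Actg2, Eef1a2, Tubb4a and Npm2. Only the tubulin genes Tubb2a and Tubb2b had one in all 6, beside 7187 of the 21887 protein-coding genes. The share of all genes with none in any library was not computed. The median covered share of the list was 27.5% and 3.78% in SPT5, 21.2% and 13.8% in NELFB:HA, and 13.6% and 14.6% in NELFE. SPT5 exceeded NELFE without overlap in 3 of the 11; the 50.9% above is for genes with a strong peak and is no background for this list. Only Gapdhs, Tubb2a and Tubb2b had a region in the limma fit, and 0 of these 3 were called (median 1.07).

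The profile of the 7 genes, taken as the median of their merged regions, was 9003 and 8160 bp in NELFB:HA, 6726 and 7428 bp in NELFE, and 13651 and 12662 bp in SPT5. The regions outside the windows with the most similar log2 covered lengths over the 6 libraries were ranked by Euclidean distance. Nearest was chr14:78720787-78735493 at Dgkh (distance 0.308). It was followed by chr12:80104642-80119401 at Zfp36l1 and Gm52006 (0.389) and chr14:54563505-54579675 at Ajuba (0.390). Next came chr17:45560747-45575507 at Nfkbie, Slc35b2 and Hsp90ab1 (0.392), the last of which encodes a constitutive HSP90 chaperone, and chr5:114125998-114143725 at Alkbh2 and Ung (0.425), which encode DNA repair enzymes.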

How the data were processed

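Chromatin immunoprecipitation reads of 6 control libraries had been turned by the authors into broad peak lists with MACS 2.1.1.20160309, 1 list per library against an input, per the file headers. Aligned reads are on mm10, and Bowtie2 and deepTools are named too, per the submitters' processing notes. The deposited pileup is a coverage signal after MACS scaling, the deposited fold enrichment is a ratio to the local input, and significance is deposited as −log10 of the p-value and as −log10 of the q-value, per the file headers. These headers state that q was not calculated while the column holds values, which were used as the authors' own. The headers give a p cutoff of 0.01 for strong and 0.1 for weak linking regions, so peak edges depend on depth and input.

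Peaks sharing at least 1 bp with a gene window were members, and all 7 genes are named, with neighbours, fixed lists and the 5 most similar regions. The leading peak over the gene and the coverage of the annotated gene alone were chosen after seeing the data. Members and lists were chosen with earlier results of these data known. Gene bounds and promoter sequences came from RefSeq GRCm38.p6, with promoter entries for 5 of the 7 genes. Peaks with −log10 q of 2 or more were merged into regions. Covered bp per library were tested as log2 values with limma 3.58.1 in R 4.3.3 (eBayes with trend, antibody as the only term), a fit tested on simulated data. Differences between antibodies were set against the pooled SD of 2 libraries each. Depth was the filtered tag number in the headers; no share of reads is given, so no counting interval applies. Alternatives were other merging thresholds, length measures, filters, scalings, ranks and window sizes, the replicate number as a block, and leaving out each library.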

Additional observations from a re-analysis of the deposited data

How the results depend on the processing

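In all, 348 alternatives were run for 30 results: 280 kept direction and side of the threshold or stayed within the spread, and 41 moved, 10 reversed, 7 newly passed and 10 no longer passed the threshold. The cause of these changes was not tested, except that leaving out a library leaves fewer samples. Not all of the 280 could have come out otherwise. For window share and rank, leaving out 1 of 2 libraries always stays within their SD. Dropping the trend, adding the block or leaving out a library of the antibody not compared does not alter a log2 difference, so its direction is fixed. The count of regions called between SPT5 and NELFE was 155 of 11853 in all. It became 1 of 9249 with peaks of −log10 q of 5 or more merged and 623 of 11853 with the longest peak. It was 514 of 9487 with peaks with at least 50% of their length in the region and 377 of 13088 with no filter. It was 0 of 11853 without a variance trend and 4 of 11853 with the replicate block. Leaving out 1 library gave 0 to 4, and the direction changed with it: the 4 without SPT5 2 and the 1 without SPT5 1 were all shorter in SPT5, and the 1 without NELFE 1 and the 2 without NELFE 2 all longer. The calls split into 257 longer and 120 shorter with no filter, and centring gave 182 and 22. For SPT5 and NELFB:HA, 2 in all, the same settings gave 0, 387, 204, 120, 0 and 1, centring on library medians gave 6, and leaving out 1 library gave 0 to 1, the region called without SPT5 1 or without SPT5 2 being shorter in SPT5; with no filter 65 were longer and 55 shorter. For NELFB:HA and NELFE the count was 0 to 1 with 1 library left out, the 1 appearing without NELFB:HA 2. With the replicate block the call of Npm1 was lost (limma adjusted p = 0.0954), and no other call at the 7 genes changed. Replicate numbers, which the file headers give differently for the NELF libraries, did not pair the libraries: deviations of same-numbered libraries correlated at -0.0141 (SPT5 and NELFE), -0.00888 (SPT5 and NELFB:HA) and -0.0031 (NELFB:HA and NELFE) over 11853 regions. With the longest peak as the measure, SPT5 exceeded NELFE at Actb (log2 2.35, limma adjusted p = 0.00636) and Actg1 (2.02, 0.00727). It also did so at Eef1a1 (1.61, 0.0317) and Npm1 (2.03, 0.00765), and exceeded NELFB:HA at Npm1 (2.27, 0.00579) and Eef1a1 (1.63, 0.0427). With peaks of at least 50% of their length in the region, SPT5 exceeded NELFE at Actg1 (1.40, limma adjusted p = 0.0111) and Npm1 (1.34, 0.0106). In that setting it exceeded NELFB:HA at Npm1 (1.12, 0.0459).

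Signs reversed for differences that no setting called. SPT5 minus NELFB:HA with 1 library left out ran from -0.12 (without NELFB:HA 1) to 0.51 at Actb and from -0.13 (without NELFB:HA 2) to 0.44 at Gapdh. NELFB:HA minus NELFE at Gapdh was -0.080 after centring, -0.020 without NELFE 1 and from -0.19 (without NELFB:HA 1) to 0.38 over the libraries left out. At Eef1a1 it was -0.016 with the longest peak, -0.12 after centring, -0.0085 without NELFB:HA 1 and from -0.023 (without NELFE 1) to 0.15 over the libraries left out, and at Npm1 -0.24 with the longest peak.

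The mean over libraries of the median covered window share moved to 42.0%, 48.5% and 31.8% in NELFB:HA with peaks of q-value 0.01 or less, windows widened by 5 kb and the leading peak of the window alone. In NELFE it moved to 32.2%, 35.4% and 24.3%, and to 51.6% over the gene alone. In SPT5 the widened window gave 62.2%, the leading peak 73.2% and the gene alone 100%. The mean pileup rank moved to the top 0.132% in NELFB:HA by −log10 p and 0.545% in NELFE by fold. Against only the peaks of q-value 0.01 or less it was the top 7.35% in NELFB:HA, 4.60% in NELFE and 15.1% in SPT5, so the ranks near 1% or below rest on the many weak peaks listed. Depth differs between the libraries by over 1.5 times, and peak edges were not compared at equal depth.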
